A study of Sus scrofa with 2 samples.

Results

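The genes of oxidative phosphorylation were followed in the somatic cells of 2 pig antral follicles. A row of the deposited gene list was taken as a nuclear member when its symbol began with NDUF, UQCR, ATP5, COX4, COX5, COX6, COX7 or COX8, or was SDHA, SDHB, SDHC, SDHD or CYC1. This gave 66 nuclear genes out of 22342 listed genes, and the 13 protein-coding genes of the mitochondrial genome were kept apart from them. The rule reads gene symbols only. The nuclear genes comprised 24 subunits of complex I, 3 of complex II, 5 of complex III, 15 of complex IV and 10 of ATP synthase (complex V), together with 2 regulators of ATP synthase and 7 assembly factors of complex I. The gene list gave 7356 genes by identifier alone, and 18 further rows that a reference table names as subunits or assembly factors, among them COX7C, COX8A and UQCRFS1, were outside the rule and entered only the processing alternatives.

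The respiratory chain passes electrons from NADH and succinate to oxygen through complexes I to IV and pumps protons across the inner mitochondrial membrane, and ATP synthase uses that gradient to make ATP. Complexes I, III, IV and V are built from subunits of both genomes, so that transcripts from the nucleus and from mitochondrial DNA contribute to the same enzymes, whereas complex II is encoded entirely in the nucleus. In granulosa cells, the somatic cells that surround the oocyte, mitochondria also carry out the opening step of steroid hormone synthesis.

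Both follicles were taken from the ovaries of a pubertal Landrace × Yorkshire pig, 210 days old, that had been injected with PMSG, a gonadotropin preparation, and both were over 7 mm across. The ovaries came from a slaughterhouse and were moved on ice within 2 h, the oocyte complexes were picked out with needles and pipetted in hyaluronidase, which strips cumulus cells from the oocyte, and the granulosa cells in the fluid that resulted were made into 3′ single-cell libraries (10X Genomics), 1 for each follicle. The samples are labelled somatic cells of follicle 1 and follicle 2, and the submitters' names for them are AF75 and AF76. They differ by no treatment, and since each follicle has 1 library and both come from 1 animal, no test between them was made. Follicle 1 had 14289 barcodes and 125409747 UMIs (unique molecular identifiers, each counting 1 captured transcript), and follicle 2 had 15548 barcodes and 127414267 UMIs. Barcodes with 2000 to 5000 detected genes were used, 9555 in follicle 1 with a median of 11194 UMIs and 7985 in follicle 2 with a median of 13830 UMIs. The libraries had 56 barcode sequences in common, 19 of them in that range in both. Doublets were kept. Among granulosa markers, INHA stood at 19921 UMIs per 1000000 (CPM) in follicle 1 and 23179 CPM in follicle 2, whereas AMH was at 0 in follicle 1. Summed markers of immune cells came to 15.6 and 23.5 CPM and those of theca or stroma to 2.82 and 11.14 CPM, in follicles 1 and 2 respectively, and HBB of red blood cells stood at 2.50 and 45.2 CPM. Sums over cells cannot tell fewer cells of a type from less RNA per cell.

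Nuclear oxidative phosphorylation transcripts made up 1.65% of all UMIs in follicle 1 (95% exact binomial interval 1.645 to 1.650) and 1.76% in follicle 2 (1.760 to 1.765). The ratio of follicle 2 to follicle 1 was 1.07 (95% exact conditional interval 1.068 to 1.072). The 13 mitochondrial genes made up 2.78% of UMIs in follicle 1 and 3.07% in follicle 2, a ratio of 1.10 (1.103 to 1.106). Both sums were thus slightly higher in follicle 2, by amounts beyond counting error. Ribosomal protein transcripts were also higher there, at 9.41% and 10.3% (1.09), while summed cumulus markers were lower, at 3088 and 658 CPM, and the part of either in these ratios was not tested. These intervals, and all others given here, cover counting error only, and the spread between follicles of a kind could not be estimated from 1 library each. Mitochondrial transcripts outnumbered nuclear ones 1.68 to 1 in follicle 1 and 1.74 to 1 in follicle 2.

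The direction of the mitochondrial difference rested on the barcodes used. Over all deposited barcodes the mitochondrial share was 3.29% in follicle 1 and 3.27% in follicle 2, and the ratio was 0.994. Barcodes with under 2000 genes, which number 4595 in follicle 1 and 7397 in follicle 2, held 11.3% and 5.29% mitochondrial UMIs. The nuclear ratio was 1.08 over all barcodes.

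The size of the nuclear difference rested partly on a single gene, ATP5F1C, the gamma subunit of the rotating stalk of ATP synthase. It stood at 1533 CPM in follicle 1 and 2085 CPM in follicle 2, the highest level of any nuclear member in either follicle. Its ratio was 1.36 (1.351 to 1.368), and it supplied 9.31% of nuclear oxidative phosphorylation UMIs in follicle 1 and 11.8% in follicle 2. Without it the remaining 65 genes made up 1.49% and 1.55% of UMIs, a ratio of 1.04 (1.038 to 1.042).

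Levels of single genes covered a wide range but were nearly the same in the 2 follicles, as shown in the plot of gene levels. Of the 66 nuclear genes, 61 reached 200 UMIs in at least 1 follicle, with a median of 203 CPM in follicle 1 and 217 CPM in follicle 2. The 10 most abundant nuclear genes supplied 46.8% and 47.9% of the nuclear UMIs. A UMI stands for a molecule whatever its length, so CPM was not divided by gene length. How well each gene's 3′ end is annotated still bears on comparisons between genes.

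**Figure D1:**
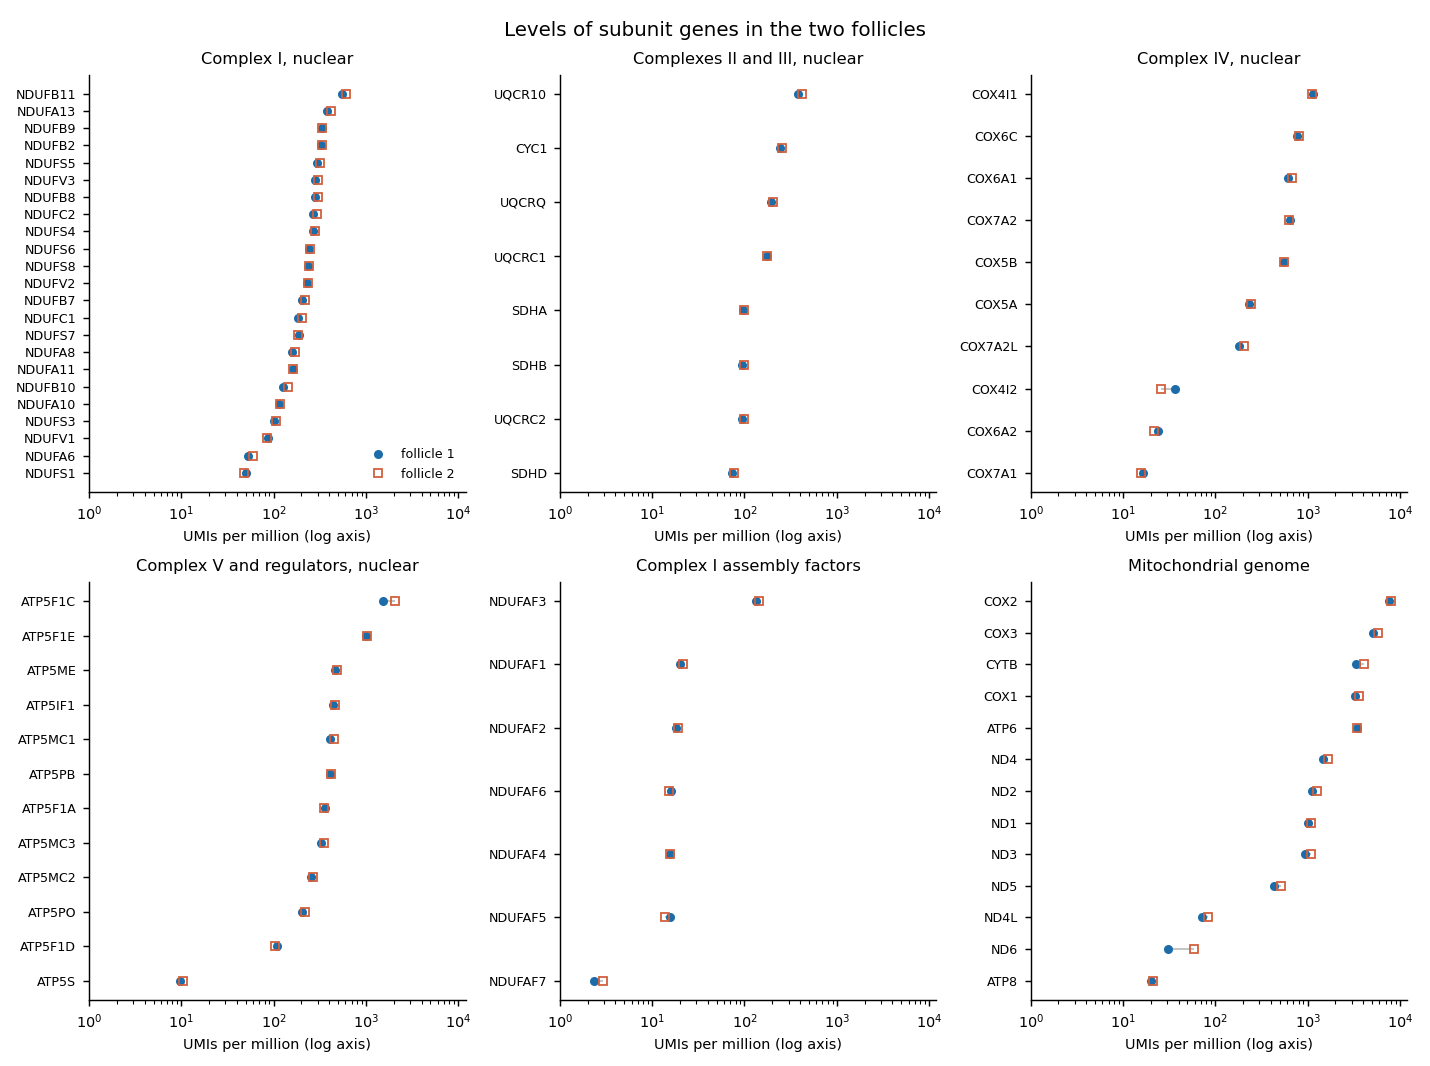
CPM (log axis) of 60 of the 61 nuclear genes that reached 200 UMIs and of the 13 mitochondrial genes, in follicle 1 (filled circles) and follicle 2 (open squares). Most pairs of symbols coincide, while ATP5F1C, COX4I2 and ND6 are visibly apart.

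Few members passed a fixed size of difference between the follicles, set at 25% higher or 20% lower, which are the same on a log scale. ATP5F1C and NDUFAF7 were at least 25% higher in follicle 2, which is 2 of the 61 genes, against 5.99% of the 10065 genes tested. NDUFAF7 passed narrowly, and not in cells under 7% mitochondrial UMIs (1.245) or over all barcodes (1.24), where ATP5F1C alone did. COX4I2 alone was at least 20% lower, 1 of the 61 against 8.49% of all genes. The remaining 58 lay between these limits. Of the 61, 45 had a ratio above 1 and 16 below 1, and the median log2 ratio was 0.07, where that of all genes tested was −0.0016. Most members therefore differed little between the follicles.

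**Figure D2:**
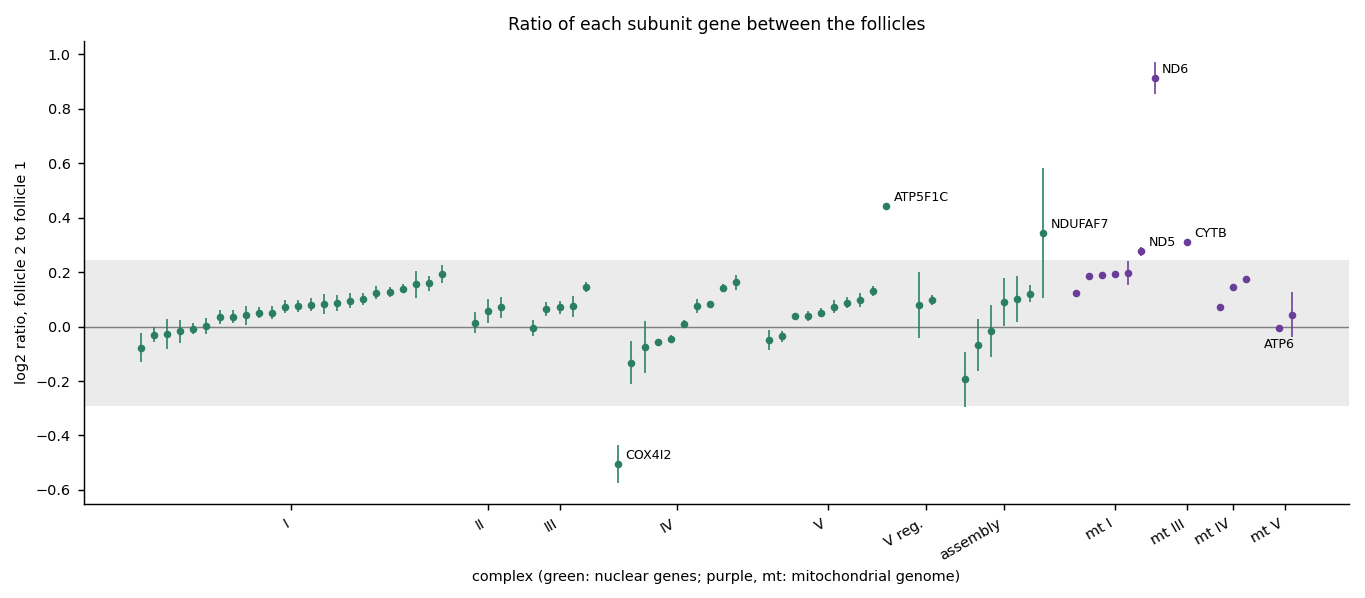
The log2 ratio of follicle 2 to follicle 1 for each gene, grouped by complex, with 95% counting intervals. The grey band holds the middle 80% of all 10065 genes tested, from −0.29 to 0.24, and ATP5F1C, NDUFAF7, ND5, CYTB and ND6 lie above it and COX4I2 below it.

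Complex I, the NADH dehydrogenase, has its electron-carrying core and a large set of accessory subunits in the nuclear list. The 24 genes together made up 0.516% of UMIs in follicle 1 and 0.545% in follicle 2, a ratio of 1.05 (1.051 to 1.058). The 2 most abundant were the accessory subunits NDUFB11, at 545 and 600 CPM, and NDUFA13, at 379 and 413 CPM. NDUFB10 had the highest ratio, with 126 CPM in follicle 1 and 145 CPM in follicle 2 (1.14, 1.118 to 1.170), and NDUFC1 followed at 182 and 203 CPM (1.12). The lowest was NDUFS1, the largest core subunit, with 50.8 and 48.1 CPM (0.947, 0.913 to 0.984). Within the complex, 19 genes were above 1 and 5 below.

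Complex II, succinate dehydrogenase, also belongs to the citrate cycle. SDHA, which carries the flavin, stood at 96.9 and 97.9 CPM, SDHB, an iron-sulfur protein, at 94.7 and 99.5 CPM, and the membrane anchor SDHD at 73.6 and 76.6 CPM. The 3 genes had a summed ratio of 1.03 (1.017 to 1.050) and lay close to each other in level. In complex III, which passes electrons on to cytochrome c, UQCR10 was the most abundant at 380 and 420 CPM and had the highest ratio, 1.11. CYC1, the haem-bearing cytochrome c1, followed at 245 and 258 CPM, and the core protein UQCRC1 was level between the follicles at 177 and 176 CPM. The complex III genes in sum had a ratio of 1.06 (1.053 to 1.069).

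Complex IV, cytochrome c oxidase, had the smallest ratio of summed nuclear subunits, 1.02 (1.012 to 1.020). Among its members COX4I1 was the most abundant, at 1154 CPM in follicle 1 and 1109 CPM in follicle 2, followed by COX6C at 768 and 813 CPM. COX7C, a subunit of this complex outside the rule, lay between them at 983 and 908 CPM. Several subunits of this complex come as paralogues that differ between tissues. COX4I2, the paralogue of COX4I1 known from lung and low oxygen, had 36.2 CPM in follicle 1 and 25.5 CPM in follicle 2, a ratio of 0.705 (0.671 to 0.739). The widespread form exceeded it many times over in both follicles.

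The COX6A and COX7A paralogues followed the same order, with the widespread form far above the restricted one. COX6A1 was at 610 and 672 CPM, while COX6A2, the form of heart and skeletal muscle, was at 24.0 and 21.9 CPM (ratio 0.912). COX7A2 was at 647 and 627 CPM, its relative COX7A2L, which takes part in supercomplex assembly, at 181 and 203 CPM (1.12), and the muscle form COX7A1 at 16.5 and 15.6 CPM (0.949). NDUFA4L2, a paralogue of a complex IV subunit, had 48 UMIs in follicle 1 and 43 in follicle 2. COX6B2 and COX7B2 had 1 and 3 UMIs in follicle 1 and 4 and 1 in follicle 2. COX8H had none in either follicle, which allows up to 0.0266 and 0.0272 CPM at a floor of 3 counts.

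COX8C, a paralogue of a small complex IV subunit, was seen in follicle 2 alone. It had 168 UMIs there (1.52 CPM) and none in follicle 1, also when all 14289 deposited barcodes of that library were counted. Against the level that 3 UMIs over the whole of follicle 1 would give, it was at least 57.3-fold higher in follicle 2, and the lower limit of the exact conditional interval, which also covers the counting error of follicle 2, was 46.1. It was too low for the minimum of 200 UMIs and is not among the 61 genes above. Within follicle 2 it ranged from 0.425 to 3.70 CPM over 6 clusters of cells, described further on.

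ATP synthase had the highest ratio of the nuclear complexes, 1.13 (1.130 to 1.138), with 0.507% of UMIs in follicle 1 and 0.575% in follicle 2. Without ATP5F1C the other 9 genes had a ratio of 1.04 (1.032 to 1.041), below those of complexes I and III. After ATP5F1C, ATP5F1E, the epsilon subunit of the same stalk, was the most abundant at 1005 and 1031 CPM (1.03). The remaining 8 subunits, among them ATP5F1A, the catalytic-head subunit alpha, and the ring genes ATP5MC1, ATP5MC2 and ATP5MC3, lay between 0.967 for ATP5F1D and 1.09 for ATP5MC1. The 3 ring genes encode the same mature protein with different import sequences, and they stood at 411, 252 and 327 CPM in follicle 1 and at 450, 265 and 348 CPM in follicle 2. ATP5IF1, which inhibits the enzyme when it would run in reverse, was at 436 and 467 CPM (1.07), and the coupling factor ATP5S at 9.78 and 10.3 CPM. ATP5F1C was therefore the only ATP synthase gene far from the others in ratio.

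Assembly factors of complex I, which help build the enzyme and are not part of it, were low apart from NDUFAF3 at 133 and 145 CPM, with NDUFAF1 next at 20.3 and 21.7 CPM. NDUFAF7, a methyltransferase, had 2.34 CPM in follicle 1 and 2.96 CPM in follicle 2. Its ratio of 1.27 rested on 264 and 327 UMIs, and its interval, 1.075 to 1.497, reached below a difference of 25%. NDUFAF5 was at 15.6 and 13.6 CPM (0.874, 0.815 to 0.937). The 7 factors ranged from ratios of 0.874 to 1.27, with 4 above 1.

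The RefSeq annotation of the pig genome, on the same Sscrofa11.1 build, gave a gene start for 53 of the 66 nuclear genes (80.3%), and the 300 bases from 250 before to 50 after each start were searched on both strands. The NRF1 motif (GCGC, any base, then TGCGC, on either strand) occurred in 8 of the 53 windows (15.1%) and in 6.32% of 19501 protein-coding windows. The ETS motif bound by GABPA, CCGGAAG, occurred in 16 (30.2%) against 10.99%, and the YY1 motif AAGATGGCG in 4 (7.55%) against 1.47%. A TATA element, TATAAA, occurred in 3 (5.66%) against 10.9%. The median G and C content was 61.3% for the members and 58.7% for all windows. A match of letters is not evidence that a factor binds. The sites below are shown because they place the NRF1 letters before genes of complexes I, III, IV and V and the ETS letters before genes of complexes II, IV and V. The motif is in capitals, each site is read on the strand of its gene, and 1 site is given per gene and motif.
NDUFS6, NRF1, chr16:79000050-79000079, minus strand: cgaccgcaccGCGCATGCGCgcctcccagg
UQCR10, NRF1, chr14:46783317-46783339, plus strand: gtcggtcgaaGCGCAGGCGCggt
COX7A2, NRF1, chr1:90696717-90696745, plus strand: agttttccagGCGCTTGCGCgagacctga
ATP5ME, NRF1, chr8:113579-113608, minus strand: gctgccgacgGCGCATGCGCtttccagagt
SDHD, ETS, chr9:39790604-39790630, plus strand: cgtgtgactgCTTCCGGgttgcgggat
COX5B, ETS, chr3:56632108-56632132, minus strand: gagcctgttaCCGGAAGtgctggta
ATP5F1C, ETS, chr10:63599631-63599657, minus strand: gccctggcgaCCGGAAGcggaacaggg

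ATP5F1C lies on chromosome 10 from 63584288 to 63599537 on the minus strand. Its start is 75 bases from that of KIN, which runs the other way, and the ETS match shown for it, 110 bases before its start, falls inside the annotated KIN gene. At its other end, where 3′ libraries read a gene, RefSeq places an uncharacterized long noncoding RNA on the plus strand, from 63576568 to 63587321, which overlaps ATP5F1C. Reads from both cannot be told apart unless counting used strand, and whether it did is not given in the sources used here.

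The factors named by these motifs were themselves measured. NRF1 stood at 6.05 and 5.90 CPM, GABPA at 25.8 and 24.4 CPM and YY1 at 103 and 109 CPM, and none of the 3 reached either limit. PPARGC1A, the PGC-1alpha coactivator of mitochondrial biogenesis, had 5.05 CPM in follicle 1 and 2.92 CPM in follicle 2 (0.578, 0.503 to 0.664), and its relative PPRC1 had 9.73 and 8.80 CPM. Of 7 listed regulators that reached 200 UMIs, 1 was at least 20% lower and none 25% higher, against 8.49% and 5.99% of all genes.

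The mitochondrial genes were led by the complex IV subunits COX2, at 7529 CPM in follicle 1 and 7911 CPM in follicle 2, and COX3, at 5151 and 5822 CPM. COX1, the catalytic subunit, was at 3250 and 3595 CPM, and CYTB, the single mitochondrial subunit of complex III, at 3330 and 4132 CPM. ATP6, the proton channel of ATP synthase, was at 3414 and 3398 CPM. Of the 13 genes, 12 had a ratio above 1, with ATP6 the exception at 0.995 (0.991 to 1.000), and the median log2 ratio was 0.19. CYTB had the highest ratio of the 5 abundant genes, 1.24 (1.235 to 1.246).

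The mitochondrial subunits of complex I were less abundant than those of complex IV and lay in a narrow range of ratios, with 1 exception. ND4 was at 1456 and 1666 CPM, ND2 at 1111 and 1265 CPM, ND1 at 1010 and 1099 CPM, ND3 at 949 and 1082 CPM and ND5 at 430 and 521 CPM. Their ratios ran from 1.09 for ND1 to 1.21 for ND5, and ND4L, at 72.7 and 83.3 CPM, had 1.15. ND6 had 31.0 CPM in follicle 1 and 58.4 CPM in follicle 2, a ratio of 1.88 (1.807 to 1.963), and was the only mitochondrial gene past 25%. It is also the only protein-coding gene on the other strand of the mitochondrial genome.

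Counts of the overlapping mitochondrial genes carry an added uncertainty, since a read in shared bases of the same strand cannot be given to a single gene, and ND5 and ND6, on opposite strands, can be told apart there only if counting used strand, which is not given in the sources used here. ND6 (chrMT:14739-15266, minus strand) shares 17 bases with the end of ND5 (chrMT:12935-14755, plus strand), shown here because ND6 is the outlying gene, on the plus strand:
ND5 and ND6 overlap, chrMT:14739-14755: ttaattaccacgagtaa
ATP8, at 20.4 and 21.0 CPM the lowest of the 13, shares 43 bases with ATP6, and ND4L shares 7 with ND4. The low levels of ATP8 and ND4L beside their neighbours were measured under these overlaps, whose part in the values was not tested.

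The shares differed far more between cells of a follicle than between the follicles. Per cell, the nuclear share had a median of 1.62% in follicle 1, with 5% of cells below 1.21% and 5% above 2.14%. In follicle 2 the median was 1.72% and the same limits were 1.23% and 2.31%. The SD between cells was 0.291 and 0.327 percentage points, where counting alone would give 0.122 and 0.118. The mitochondrial share spread more widely, with medians of 2.61% and 2.99% and 5th to 95th percentiles from 0.527% to 5.69% and from 0.579% to 5.63%. In 78.1% of cells of follicle 1 and 82.3% of follicle 2 mitochondrial UMIs outnumbered nuclear ones.

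The shares from the 2 genomes were set against each other cell by cell. Across the 9555 cells of follicle 1 Spearman's rho of the nuclear and mitochondrial shares was −0.09, and across the 7985 cells of follicle 2 it was −0.19. The cells of a follicle share a library, and the 2 shares have the same denominator, so that more UMIs of one kind lower the share of the other. When mitochondrial and ribosomal protein UMIs were left out of the denominator, rho was 0.00 in follicle 1, where the sign turned, and −0.11 in follicle 2. Over all deposited barcodes, which include those with under 2000 genes, rho was −0.46 and −0.38. These relations in sparse counts are given as a description. By contrast, the nuclear shares of complexes I and IV went together in cells, with rho 0.35 and 0.48, and those of complexes I and V with 0.28 and 0.26.

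Grouped by mitochondrial share, the nuclear share was highest in the 906 cells of follicle 1 with under 1% mitochondrial UMIs, at 1.74%, and lowest in the 193 cells with 7% or more, at 1.43%. In follicle 2 the corresponding values were 1.93% in 651 cells and 1.4995% in 142 cells. Between 1% and 5% the share was flat in follicle 1, from 1.64% to 1.65%, and went from 1.83% to 1.74% in follicle 2. As a share of non-mitochondrial UMIs, the cells at 7% or more still had 1.57% and 1.65%. Their median depth was 8210 and 9045 UMIs, below that of every other group, and the part of depth was not tested.

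**Figure D3:**
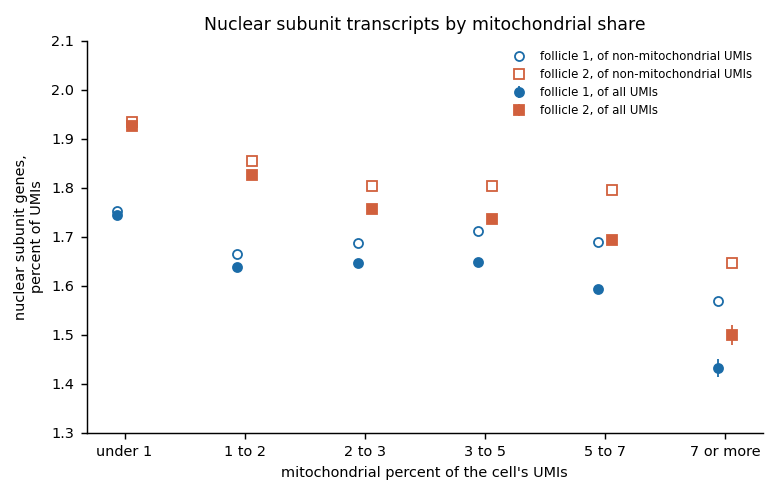
Nuclear oxidative phosphorylation genes as a percent of UMIs (axis from 1.3 to 2.1) in cells grouped by mitochondrial percent, for follicle 1 (circles) and follicle 2 (squares). Filled symbols are shares of all UMIs with 95% counting intervals and open symbols are shares of non-mitochondrial UMIs, and in both follicles the group at 7% or more is the lowest.

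Cells were clustered within each follicle with the 66 nuclear and 13 mitochondrial genes left out of the genes that define the clusters. Clusters are named by number and by their leading genes, and those with at least 50 cells are described, 5 of 6 in follicle 1 and 6 of 8 in follicle 2. Cells of a cluster come from 1 library and are not replicates, so differences between clusters are given with no test. The nuclear share ranged 1.38-fold over the clusters of follicle 1 and 1.52-fold over those of follicle 2, and the mitochondrial share 1.68-fold and 1.12-fold.

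Small clusters that express SCG2, C12orf75 and CXCL14 had the highest nuclear share in both follicles. In follicle 1 this was cluster 4 (148 cells, led by SLC24A1 and ALDH1A2), with 1.98%, and in follicle 2 cluster 3 (177 cells, led by SPP1), with 2.02%. The largest clusters, led by mural markers such as TGFB3 and IL33, lay lower, at 1.70% in 6637 cells of follicle 1 and 1.79% in 4109 cells of follicle 2. Cluster 1 of follicle 2, led by MRO and INSIG1, had 1.76% in 2782 cells, and cluster 1 of follicle 1, led by TMEM178A and FGF13, had 1.54% in 1215 cells.

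The lowest nuclear share was in cluster 2 of each follicle, 1.44% in 1059 cells of follicle 1 and 1.33% in 674 cells of follicle 2. These clusters were not alike in other genes. Cluster 2 of follicle 1 was led by SLC10A4, CALCRL and ALPK2 and had 13878 CPM of summed cumulus markers, among them VCAN, against 963 CPM in cluster 0. Cluster 2 of follicle 2 was led by CEMIP, CCDC80 and FBXO32. It had 838 CPM of the same markers, 824 CPM of it VCAN, against 421 CPM in cluster 0 of that follicle. Theca or stromal markers came to 109 CPM against 7.65 CPM, with ACTA2 the most abundant. Granulosa and mural markers came to 6722 and 760 CPM, against 34525 and 11137 CPM in cluster 0. In follicle 1 they came to 23680 and 658 CPM in cluster 2, against 33135 and 7140 CPM in cluster 0. The median depth of cluster 2 of follicle 2, 6404 UMIs, was less than that of the other clusters. Of its UMIs, 13.7% were from ribosomal protein genes, against 10.4% in cluster 0. The part of depth and of ribosomal protein transcripts in its low share was not tested.

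The mitochondrial share set these clusters apart from each other. In follicle 1, cluster 2 was the lowest of all at 1.79% against 3.01% in cluster 0. In follicle 2, cluster 2 had 2.93% against 3.21%, so that its mitochondrial transcripts outnumbered nuclear ones 2.20 to 1, compared with 1.248 to 1 in cluster 2 of follicle 1.

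**Figure D4:**
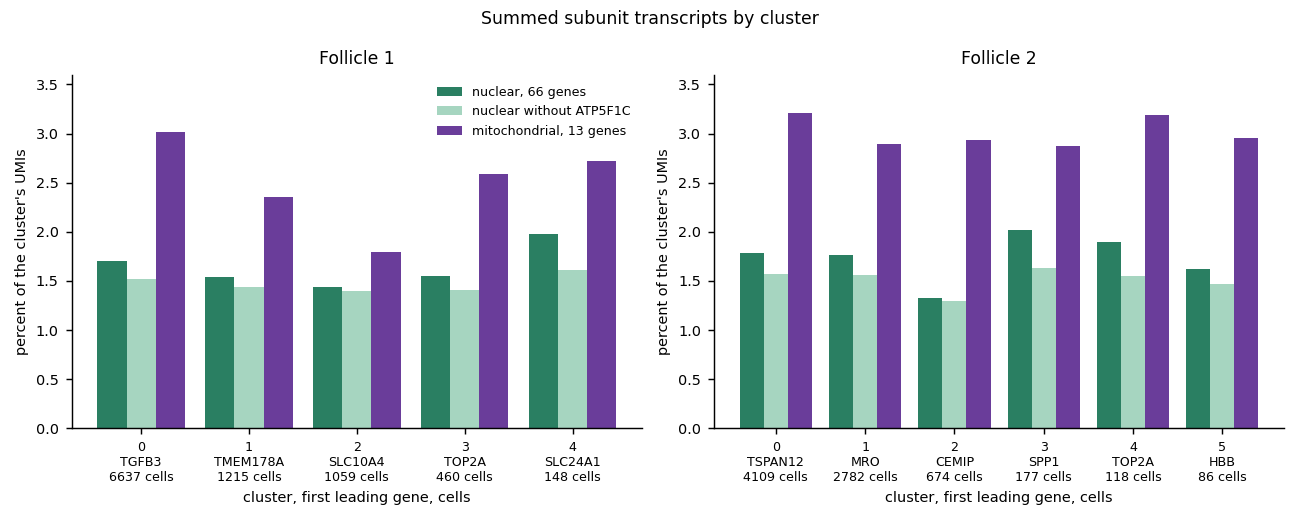
Percent of each cluster's UMIs from the 66 nuclear genes, the 65 nuclear genes without ATP5F1C and the 13 mitochondrial genes, for clusters of at least 50 cells in each follicle. The bars without ATP5F1C range less between clusters than those of all 66 genes, from 1.39% to 1.61% in follicle 1 and from 1.295% to 1.64% in follicle 2.

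ATP5F1C carried much of the difference between clusters. In follicle 1 its levels in clusters 0 to 4 were 1754, 1025, 421, 1364 and 3695 CPM. In follicle 2 it was at 2176, 2011, 361, 3856, 3468 and 1514 CPM in clusters 0 to 5. Highest to lowest, this was 8.78-fold in follicle 1 and 10.7-fold in follicle 2. The order matched that of the summed nuclear share at both ends, since clusters 4 and 2 in follicle 1, and 3 and 2 in follicle 2, were the extremes of both. ATP5F1C is itself part of that sum. The other 65 genes had the same extremes, at 1.61% and 1.39% in follicle 1 and 1.64% and 1.295% in follicle 2.

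No other member varied as widely among the 39 that had at least 200 UMIs in each cluster of both follicles. Their median range was 1.28-fold in follicle 1 and 1.41-fold in follicle 2, and 33 and 25 of them stayed under 1.5-fold. Ranges of all genes were not measured beside these. NDUFB11 was next, from 340 CPM in cluster 2 to 601 in cluster 0 of follicle 1 and from 156 to 645 CPM between the same numbers in follicle 2. ATP5MC1 ranged 1.72-fold and 2.55-fold, UQCR10 1.55-fold and 1.94-fold and ATP5IF1 1.71-fold and 1.65-fold. COX4I1 ranged least in follicle 1, from 1146 to 1203 CPM, but from 903 to 1277 CPM in follicle 2, where UQCRC1 ranged least (1.10-fold). Of the 39, 23 were lowest in cluster 2 of follicle 1 and 30 in cluster 2 of follicle 2. The same count is not given for all genes, so whether it is particular to the members was not tested. By a different measure, 37.8% of all genes tested in follicle 1 and 20.4% in follicle 2 were at least 20% lower in cluster 2 than in cluster 0.

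The neighbouring genes of ATP5F1C on chromosome 10 stayed in narrower ranges. Over the same clusters TAF3 was at 44.8 to 64.1 CPM in follicle 1 and 49.0 to 64.6 CPM in follicle 2, and KIN at 42.8 to 67.6 and 48.8 to 83.0 CPM. KIN was higher in cluster 2 than in cluster 0 in both follicles, at 58.0 against 42.8 CPM and 83.0 against 51.2 CPM, while ATP5F1C was lower.

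**Figure D5:**
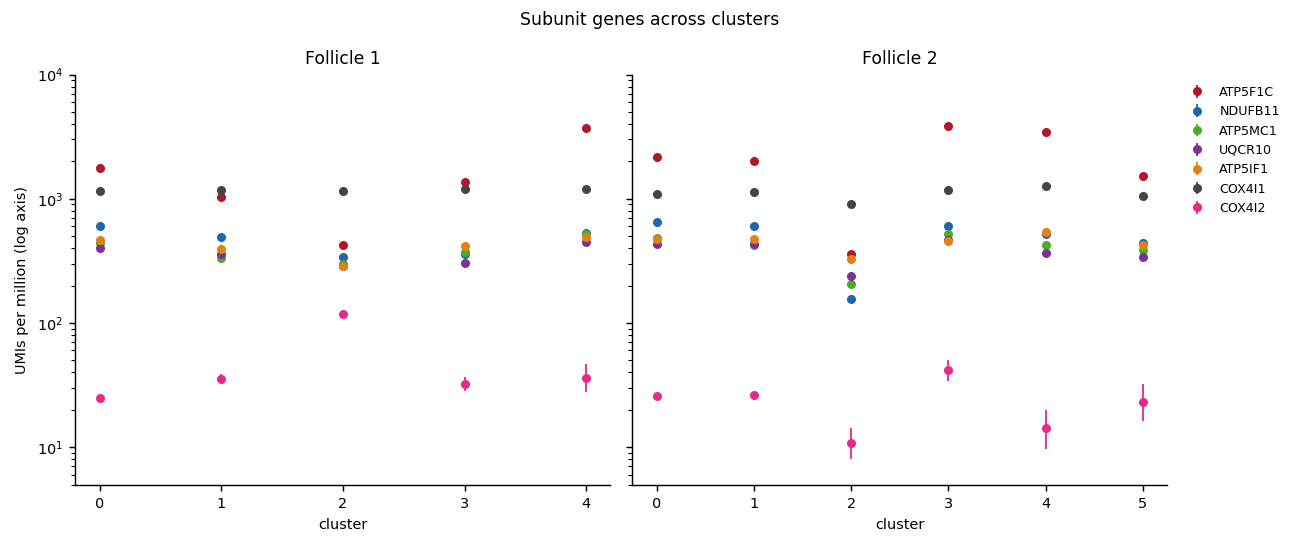
CPM (log axis) of the 5 members with the widest range over clusters among the 39 with at least 200 UMIs in each, and of COX4I1 and COX4I2, by cluster in each follicle, with 95% counting intervals. ATP5F1C is lowest in cluster 2 of both follicles, and COX4I2 is highest in cluster 2 of follicle 1 and lowest in cluster 2 of follicle 2.

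Set against cluster 0 of its own follicle, cluster 2 of follicle 1 had 16 of 60 members at least 20% lower, against 37.8% of all genes tested, and 5 at least 25% higher, against 17.5%. The median log2 ratio was −0.17 for the members and −0.16 for all genes, so in the median the members were close to all genes. In follicle 2, 26 of 60 members were at least 20% lower in cluster 2, against 20.4% of all genes, and 7 higher, against 51.7%. There the median log2 ratio was −0.27 for the members and 0.36 for all genes. The lists of lower genes had 12 in common, 75% of the list of follicle 1 and 46.2% of that of follicle 2, among them NDUFS7, NDUFA13, UQCR10, COX6A1 and ATP5F1D, and whether lists of these sizes would share fewer was not tested.

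The other clusters compared with cluster 0 had fewer members past these limits than cluster 2. In follicle 1, cluster 1 had 1 of 60 members higher and 4 lower, against 12.8% and 16.5% of all genes, and cluster 4 had 3 of 52 higher and none lower, against 13.4% and 11.2%. In follicle 2, 2 of 62 members were higher in cluster 1 and none lower, against 7.91% and 8.07%, and 3 of 54 were higher in cluster 3 and none lower, against 11.8% and 11.2%. Cluster 5 of follicle 2 was led by HBB, which supplied 886 of its 888 CPM of red blood cell markers. The same cluster had 24510 CPM of granulosa markers. It had none of 51 members higher and 6 lower, against 21.3% and 10.6%. ATP5F1C was the member farthest above cluster 0 in the SCG2-expressing clusters, at 2.11-fold in follicle 1 and 1.77-fold in follicle 2.

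COX4I2 differed from most members over clusters. In follicle 1 it was at 118 CPM in cluster 2, 4.70-fold its 25.05 CPM in cluster 0, with 35.6, 32.3 and 36.2 CPM in clusters 1, 3 and 4. In follicle 2 it was at 25.9, 26.4, 10.8, 41.6, 14.2 and 23.3 CPM in clusters 0 to 5. It was thus above cluster 0 by over 25% in the SCG2-expressing cluster of each follicle, and cluster 2 was its highest in follicle 1 and its lowest in follicle 2. Its lower level in follicle 2 as a whole was not seen between the largest clusters. There the ratio of follicle 2 to follicle 1 was 1.03 (0.966 to 1.106), and between the SCG2-expressing clusters 1.15 (0.830 to 1.604). The ratio was 0.0921 (0.0682 to 0.122) between clusters 2 and 0.438 (0.291 to 0.638) between the TOP2A clusters. Cluster 2 of follicle 1 held 1321 of the 4089 COX4I2 UMIs of that follicle. COX7A1 was also higher in cluster 2 than in cluster 0 of both follicles, at 23.9 against 15.5 CPM and 26.8 against 14.6 CPM.

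Clusters of the 2 follicles that were each other's best match in 2826 genes were compared next. Clusters 0 of both follicles (correlation of log levels 0.48) had a nuclear ratio of 1.05 (1.049 to 1.054) and a mitochondrial ratio of 1.07 (1.064 to 1.068). The SCG2-expressing clusters (0.46) had 1.02 (1.009 to 1.037) and 1.06 (1.043 to 1.068). The clusters led by TOP2A, CENPF and UBE2C, genes of dividing cells (0.67), had 1.23 (1.212 to 1.239) and 1.23 (1.223 to 1.245), and the nuclear ratio without ATP5F1C was 1.10 (1.085 to 1.112). Follicle 2 was thus higher in each of these pairs for both genomes. Clusters 2 matched weakly (0.28) and went apart, with a nuclear ratio of 0.928 and a mitochondrial ratio of 1.64.

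ND6 was higher in follicle 2 in every matched pair, with ratios of 1.85 between clusters 0, 2.36 between clusters 2, 2.01 between the TOP2A clusters and 2.36 between the SCG2 clusters. ATP5F1C had 1.24, 0.859, 2.54 and 1.04 in the same order, so that its difference was largest in dividing cells and its direction turned in clusters 2. COX4I2 had a ratio of 0.0921 (0.0682 to 0.122) between clusters 2. In the TOP2A cluster of follicle 2 ATP5F1C was 1.59-fold its level in cluster 0, with 1 of 51 members at least 25% higher, against 17.2% of all genes, and 4 at least 20% lower, against 13.8%. In the TOP2A cluster of follicle 1 it was below cluster 0, and 2 of 60 members were higher, against 19.4%, with 10 lower, against 19%.

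Other genes of mitochondria were counted in lists drawn up by function, against the 5.99% of all genes at least 25% higher and the 8.49% at least 20% lower in follicle 2, and in lists of these sizes few calls say little. Of 13 citrate cycle genes none passed the same limits, and their sum was 1276 and 1277 CPM. OGDH and SUCLG1 were the most abundant, and IDH3B (17.8 and 20.2 CPM) and CS (96.4 and 86.0 CPM) had the ratios farthest from 1. Of 25 assembly factors outside the rule 1, COX10, was lower (1.95 and 1.53 CPM, 0.787), while COX16 had 37.3 and 46.4 CPM (1.246) and COX17 and UQCC2 were the most abundant. The summed ratios were 1.00 and 1.05 respectively, beside 1.04 for the nuclear members without ATP5F1C.

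The machinery that expresses the mitochondrial genome had a summed ratio of 0.990 (0.977 to 1.004) over 15 genes, none of them past these limits. SSBP1 and SLIRP were the most abundant, and MTERF2 (39.5 and 34.1 CPM) and POLRMT, the mitochondrial RNA polymerase (9.09 and 8.07 CPM), were farthest from 1. Among 69 mitochondrial ribosomal proteins MRPS6 stood out, with 357 CPM in follicle 1 and 164 CPM in follicle 2 (0.460, 0.452 to 0.468). MRPS27 had 7.46 and 10.1 CPM (1.35), and no other gene of that list passed, the abundant MRPL17 and MRPL57 included. Of 21 import genes (TIMM8B and TOMM7 the most abundant, TOMM34 and TOMM40L farthest from 1) and 9 carriers none passed, with UCP2 at 53.4 and 43.9 CPM, the phosphate carrier SLC25A3 at 2796 and 2788 CPM and the ADP and ATP carrier SLC25A6 at 891 and 1038 CPM.

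Glycolysis, the other route to ATP, had a larger difference between the follicles in its summed level. Of 15 glycolytic genes 9 were at least 20% lower in follicle 2, against 8.49% of all genes, and 1 was at least 25% higher, against 5.99%, and their sum was 7807 CPM in follicle 1 and 6284 CPM in follicle 2 (0.805, 0.802 to 0.808). Between clusters 0 the sums lay closer, at 6404 and 5831 CPM, and summed cumulus markers, given above as 3088 and 658 CPM, were lower in follicle 2 as well, whose part was not tested. GAPDH had 2619 and 2383 CPM, ENO1 1502 and 1126 CPM, LDHA, which reduces pyruvate to lactate, 216 and 127 CPM (0.587), and HK2, an inducible hexokinase, 13.8 and 2.90 CPM (0.210). The nuclear oxidative phosphorylation share was lower in cluster 2 than in cluster 0 of both follicles, while the glycolytic sum in cluster 2 was 14662 CPM in follicle 1 and, close to cluster 0, 5966 CPM in follicle 2. Of the 4 genes of mitochondrial steroid synthesis, CYP11A1 (1690 and 1684 CPM), FDX1 (1195 and 1183 CPM) and FDXR (20.2 and 22.8 CPM) stayed within the limits, and STAR, which brings cholesterol into mitochondria, had 75.1 and 58.5 CPM (0.778).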

How the data were processed

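The authors aligned the reads to the Sscrofa11.1 genome and counted UMIs with Cell Ranger 6.0.2. The deposited values are whole counts per gene in each barcode, without normalization. Barcodes with 2000 to 5000 genes were kept, without the study's limit of 7% mitochondrial UMIs and without its doublet removal. That limit, and a removal of doublets by Scrublet in place of the study's caller, were tried as alternatives. UMIs were summed over cells. Shares have Clopper-Pearson intervals, CPM exact Poisson intervals and ratios exact conditional intervals, all at 95%. The ratio, its interval and the size limits were checked on simulated counts of known ratio. A gene entered a count of ratios if it had at least 200 UMIs in 1 follicle (between clusters, if the mean of both levels gave at least 50 UMIs in the smaller cluster).

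Each follicle was clustered in scanpy 1.11.5 (leidenalg 0.10.2, Python 3.11.15, SciPy 1.17.1) on 2000 variable genes and 40 components, with 20 neighbours and resolution 0.4. Members of both genomes and ribosomal protein genes were left out of the variable genes. Leading genes are those of highest fold among genes with at least 50 CPM. Clusters of the 2 follicles were paired where each was the other's best match. Scrublet scores marked the 6.9% of barcodes removed in an alternative.

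Named genes are the mitochondrial genes, the 2 most abundant of each complex, the 5 highest and 5 lowest ratios, the 5 widest ranges over clusters, paralogues by name and, for each list of other genes, the 2 most abundant and the 2 ratios farthest from 1. TAF3, KIN and the other genes named outside this rule, and the fit without ATP5F1C, were chosen after their values were seen. The members and lists were chosen with earlier results of these data known. Gene starts are from NCBI Sus scrofa Annotation Release 106, with earlier symbols used where a name had changed. Values of 1 member and 1 promoter site are not reported here, and that member is left out of the plot of levels.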

Additional observations from a re-analysis of the deposited data

Results flagged for a closer look

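In clusters led by TOP2A, CENPF and UBE2C, the nuclear oxidative phosphorylation share relative to cluster 0 went in opposite directions in the follicles, with a ratio of 0.911 in follicle 1 and 1.06 in follicle 2. The difference between these ratios was not tested. Without ATP5F1C the share was below that of cluster 0 in both follicles, at 1.41% against 1.52% in follicle 1 and at 1.55% against 1.57% in follicle 2. Barcodes with under 2000 genes, which entered only the values over all barcodes, held 11.3% mitochondrial UMIs in follicle 1 and 5.29% in follicle 2, and 1.47% and 1.82% nuclear oxidative phosphorylation UMIs.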

How the results depend on the processing

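No paired analysis was possible because each follicle has 1 library and no result comes from a test, and for the same reason no replicate could be left out. The log2 ratio of the nuclear sum, 0.10 (0.097), was 0.11 (0.109) over all barcodes, 0.12 with mitochondrial and ribosomal protein genes out of the denominator, 0.093 for the median over cells, 0.087 with the 18 further genes and 0.057 without ATP5F1C. That of the mitochondrial sum, 0.14, was 0.16 (0.156) under 7% mitochondrial UMIs, 0.16 (0.163) with that denominator, 0.19 for the median over cells and −0.0083 over all barcodes, where its sign turned. The count of members at least 25% higher, 2, was 1 under 7% mitochondrial UMIs and 1 over all barcodes, ATP5F1C in both, and 3 with a minimum of 50 UMIs, where COX8C joined. The correlation of shares in follicle 1, −0.09, was −0.065 under 7%, −0.46 over all barcodes, 0.0020 with the other denominator, −0.16 as Pearson's r and −0.15 without ATP5F1C. In follicle 2, −0.19, it was −0.38 over all barcodes, −0.11 with the other denominator, −0.22 as Pearson's r, −0.16 at 5000 UMIs per cell and −0.23 without ATP5F1C. The log2 range of the nuclear share over clusters, 0.46 in follicle 1, was 0.49 with 20 components, 0.44 under 7% and 0.21 without ATP5F1C, and in follicle 2, 0.60, it was 0.67 at resolution 0.8, 0.71 with members among the variable genes and 0.34 without ATP5F1C. Of the values under alternatives set at the start, 22 stayed within counting error or the limits set, 20 moved and 2 turned in sign. Removing the highest Scrublet scores left each result it was tried on among the 22. The cause of these shifts was not tested. Below 200 UMIs in both follicles, no member other than COX8C had 50 in either, and depth limits what can be said of them.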
